A study of Mus musculus with 6 samples.

Results

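The genes described here encode the initiation and elongation factors of cytoplasmic protein synthesis, the eIF and eEF families, in mouse long-term haematopoietic stem cells (LT-HSC) with and without the transcription factor Prdm16. They were chosen by symbol: every gene whose name starts with Eif or Eef, without the eIF2 kinases (Eif2ak) and without pseudogenes, and with a log2 CPM (log2 of counts per 1000000 reads) of at least 0 in at least 3 of the 6 libraries. Of 72 such symbols in the table, 4 were Eif2ak genes and 1 was a pseudogene, and 61 of the remaining 67 passed the filter on level. These 61 genes were tested among 13018 genes, out of 27179 in the table. The rule uses the level but not the difference between genotypes.

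Both groups were adult C57BL/6 mice of 8 to 12 weeks that carried the conditional Prdm16 allele on both chromosomes and received 5 injections of pIpC (polyinosinic-polycytidylic acid, an inducer of interferon). The control group, WT, had no Mx1-Cre transgene, and the knockout group, Cko, carried 1 copy of it. LT-HSC, defined by absence of lineage markers and CD48 and by Sca-1, c-Kit and CD150 on the surface, were sorted 5 weeks later. Marrow from 5 mice of a genotype was combined before the sort, and the sorted cells were divided into 3 technical replicates. Every error and p-value below therefore measures the spread between portions of 1 pool and not between animals. The Mx1 promoter responds to interferon in many cell types, so the deletion need not have been limited to stem cells, and because WT lacked the transgene, Cre and the loss of Prdm16 cannot be told apart.

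Initiation starts when eIF2 carries the initiator tRNA to the small ribosomal subunit, on which eIF1, eIF1A, eIF3 and eIF5 are assembled. The eIF4F complex (the cap-binding eIF4E, the helicase eIF4A and the scaffold eIF4G) recruits this particle to the capped mRNA, the particle scans to a start codon, and eIF5B joins the large subunit. During elongation eEF1A delivers the aminoacyl-tRNAs, eEF2 moves the ribosome along the mRNA, and eIF5A relieves ribosomes that stall. Haematopoietic stem cells are known for a low rate of protein synthesis that they need to keep their function, with the 4E-binding proteins holding eIF4E back.

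The members' promoters were searched for CACGTG, the core E-box that Myc and related factors bind, because Myc is a textbook regulator of translation factor genes. Windows of 250 bases before to 50 bases after a start site of the gene came from RefSeq (GRCm38.p6) and were present for 47 of the 61 members. The hexamer equals its own reverse complement, so 1 search covers both strands. It was found in 13 of the 47 members (27.7%), against 1196 of 10119 tested genes (11.8%). Of the tested genes whose level was at or above the members' median, 115 of 868 had it (13.2%). Over all genes with a window the count was 2187 of 27025 (8.09%). In these counts a gene had the hexamer if any of its windows held it. Counted by start site instead, 2349 of 32851 promoters held it (7.15%). The sequences of 5 members are shown because they cover the cap-binding complex (Eif4a1 and Eif4g1), the scaffold eIF3 (Eif3f and Eif3k) and elongation (Eef2) and lie upstream of the whole gene in RefSeq. The hexamer is in capitals with 15 bases on either side. Distances are counted to the start site on which each window was built, which for Eif4g1 and Eif3k is not the outermost start of the gene.
Eif4a1 (chr11:69672592-69672627, minus strand, hexamer 189 bases before the start): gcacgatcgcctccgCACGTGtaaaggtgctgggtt
Eif4g1 (chr16:20672658-20672693, plus strand, hexamer 54 bases before the start): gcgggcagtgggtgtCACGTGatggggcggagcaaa
Eif3f (chr7:108934332-108934367, plus strand, hexamer 68 bases before the start): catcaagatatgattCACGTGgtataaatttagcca
Eif3k (chr7:28981912-28981947, minus strand, hexamer 44 bases before the start): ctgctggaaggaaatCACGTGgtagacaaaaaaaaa
Eef2 (chr10:81176573-81176608, plus strand, hexamer 43 bases before the start): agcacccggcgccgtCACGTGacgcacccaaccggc
The 13 members with the hexamer had log2 fold changes from -0.33 to 0.55 with a median of -0.001, and 6 of them were positive. Those of the 34 members without it had a median of 0.004, with 20 positive. These are matches of letters and say nothing of binding in these cells.

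Recovered read totals ran from 36747729 to 43743795 per library, and pairs of libraries of 1 group differed by more than sampling noise, so none was treated as a duplicate. Prdm16 (chromosome 4, 154316122 to 154637360, mm10) had 1630, 1860 and 1381 reads in WT and 323, 388 and 643 in Cko, or 40.8 ± 9.40 CPM in WT and 10.8 ± 3.37 CPM in Cko (SD, n = 3 here and below). Its log2 fold change, Cko relative to WT, was -1.93 (SE 0.27, limma adjusted p = 0.00829), and without Cko replicate 2 the adjusted p was 0.0508, or 0.0651 over the genes tested with all 6 libraries. The reads cover the whole gene, so the deleted exons were not separated from the rest. The 9 markers of the sort gate and of LT-HSC summed to 2633 to 2767 CPM in WT and 2582 to 2884 CPM in Cko, and none passed the test (2 at an unadjusted p under 0.05). Markers of other cells moved with genotype: 9 of 10 neutrophil genes rose, with sums of 301 to 317 CPM in WT and 1091 to 1264 CPM in Cko, as did 4 of 6 eosinophil, basophil and mast cell genes (13.8 to 18.0 against 544 to 628 CPM). Of the B and plasma cell genes, 1 of 6 tested passed, as higher (59.1 to 66.1 against 230.1 to 248 CPM). In 5 of these 6 every Cko library was higher, and in Cd79b every Cko library was lower (log2 fold change -0.425). Of the erythroid genes 0 of 5 passed (19.2 to 23.4 against 25.8 to 37.1 CPM), but in 4 every Cko library was higher. Most of each WT sum came from 1 gene that did not rise. These were Cd79b (57.8 to 63.2 CPM), the erythroid Klf1 (17.3 to 22.6 CPM, log2 fold change -0.225) and the neutrophil Prtn3 (201 to 214 CPM, 0.011). Epx, Prss34, Mcpt8, Ms4a2, Ms4a1 and Igkc had 0 reads in all WT libraries. What part these cells have in any value below was not tested. In bulk libraries, fewer cells of a type and less RNA per cell cannot be told apart.

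None of the 61 factors passed the test between genotypes. With limma's moderated test and Benjamini-Hochberg adjustment over all 13018 genes, 0 members were higher and 0 were lower in Cko at an adjusted p of 0.05. Over all genes 0.699% were called, 0.407% higher and 0.292% lower, so 0 of 61 is near that background. At an unadjusted p under 0.05 there were 5 members (Eif4a2, Eef2k, Eif3i, Eif3e and Eif3a), or 8.20%, against 10.3% of all genes and 170 of the 1063 tested genes at or above the members' median level, of which 23 were called. The voom fit on recovered reads also called 0. The smallest adjusted p among the members was 0.162, for Eif4a2.

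The intervals limit the difference between the WT pool and the Cko pool, and carry no spread between animals. For 54 of the 61 members the 95% interval of the fold change lay within 1.5-fold in either direction, and for 59 within 2-fold. Among all tested genes 44.2% lay within 1.5-fold. The members are abundant, with a median of 7.60 log2 CPM against 5.21 over all genes, and their standard errors were smaller (median 0.112 against 0.199). Among the 1063 tested genes at or above the members' median level, the intervals of 97.4% lay within 1.5-fold, and the median size of the log2 fold change was 0.083, against 0.091 for the members. The members' log2 fold changes had a median of 0.0028, close to the 0.0027 of all genes, and 33 of 61 were positive. Groups did not overlap for 10 members, or 16.4%, against 16.5% of all genes (8.52% with Cko higher and 8.01% with Cko lower) and 20.2% of those at or above the members' median level. In 5 of these every Cko library was higher (Eif3a, Eif3e, Eif3g, Eif3j1 and Eif3j2), and in the other 5 every Cko library was lower (Eif3i, Eif4a2, Eif4ebp3, Eef1a1 and Eef2k). Of these 10, 5 had an unadjusted p above 0.05.

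**Figure D1:**
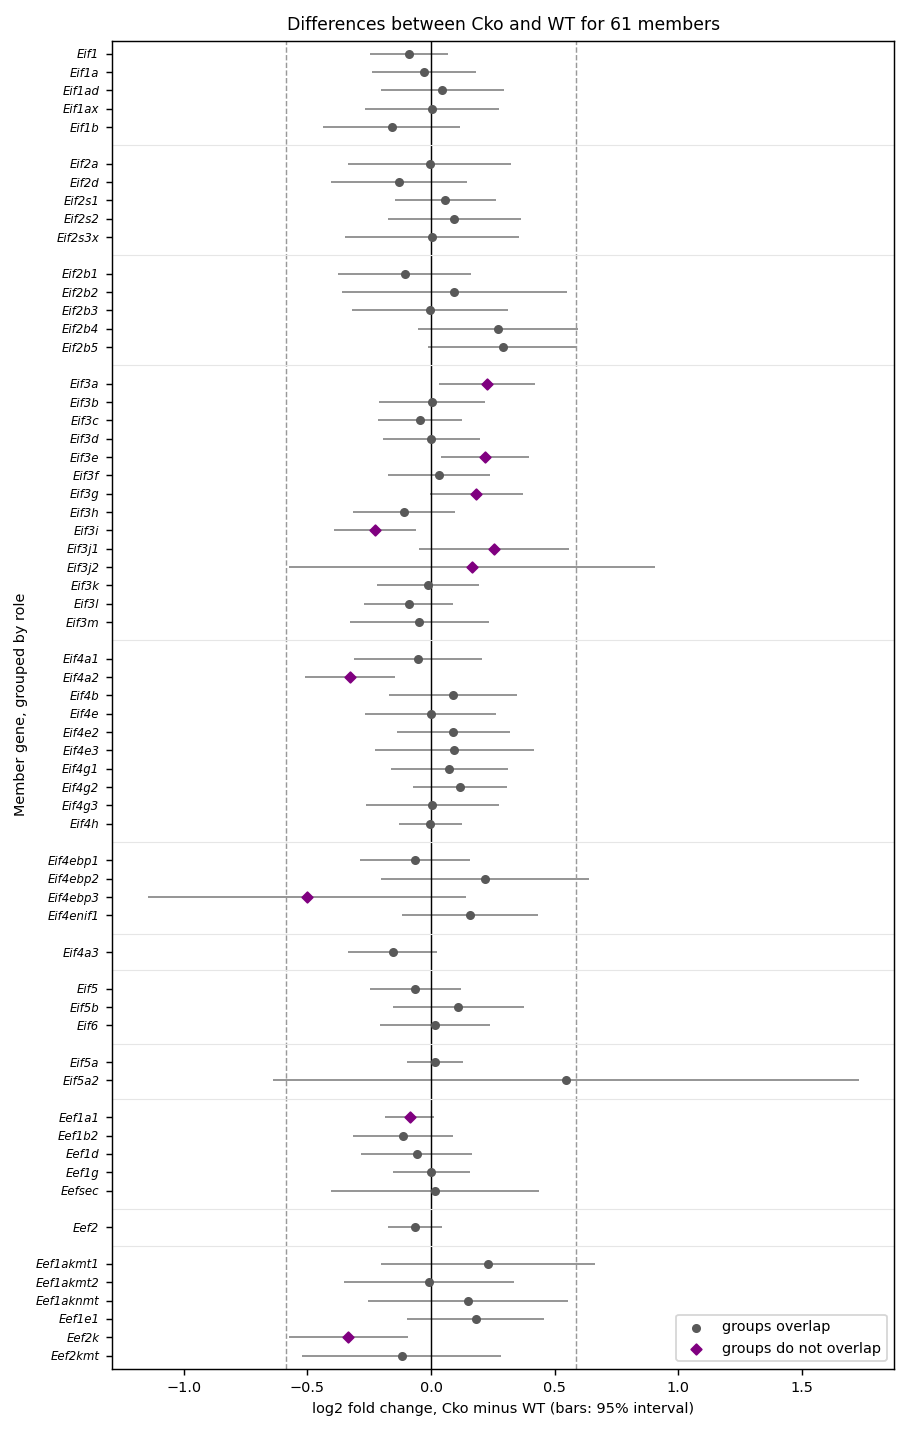
Log2 fold change of each of the 61 members, Cko relative to WT, grouped by role, with points at the limma estimate, bars for the 95% interval, diamonds where the groups do not overlap, and dashed lines at 1.5-fold in either direction. Eif5a2 has the widest interval (-0.64 to 1.73), and no member passed an adjusted p of 0.05.

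**Figure D2:**
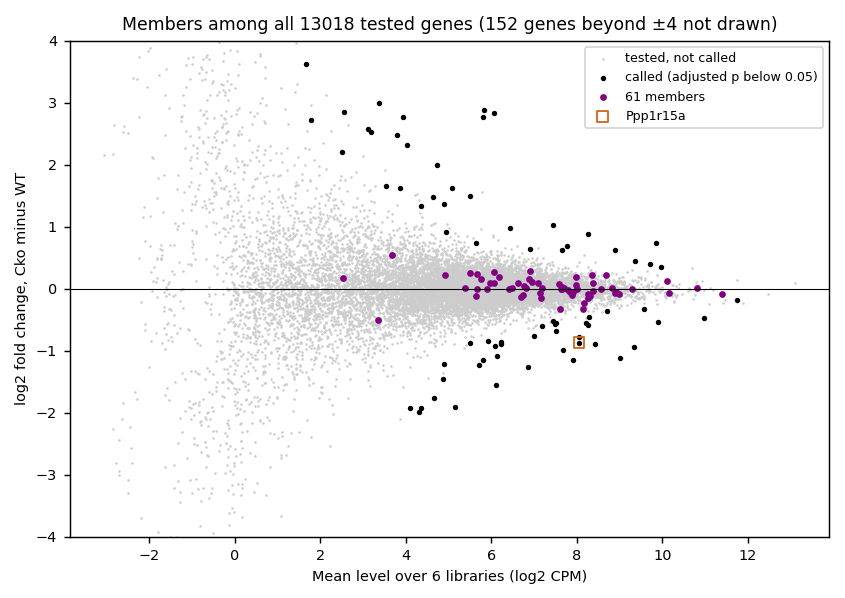
Log2 fold change, Cko relative to WT, against the mean log2 CPM of all 13018 tested genes, with the 61 members in purple, the called genes in black and Ppp1r15a boxed. The members lie near 0 and mostly at high levels. The axis leaves out 152 genes beyond 4, of which 19 were called.

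Summed over the 61 genes, the factors took 18061, 17889 and 17696 CPM in WT and 17405, 17984 and 17743 CPM in Cko. That is 1.74% to 1.81% of the reads of each library, and the lowest and the second highest sum were both in Cko. The groups overlapped, and the ratio of their means was 0.990.

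Levels of different genes were compared per kilobase of exon. The most abundant member in WT was Eef1a1, the carrier of aminoacyl-tRNA, at 1112 ± 51.7 CPM per kb. Eif5a followed at 753 ± 29.3 and Eef2, the translocase, at 349 ± 14.9. Eif1, which guards start codon choice, stood at 249 ± 19.6 CPM per kb. Each of these 4 was separated from its neighbours by more than their SDs. Eif3h at 154 ± 15.2 and Eif4a3 at 153 ± 4.88 CPM per kb came next and were within each other's spread. The lowest were Eif5a2 at 2.62 ± 2.16 and Eif3j2 at 2.28 ± 0.0449 CPM per kb. The same 3 genes led in Cko, where Eef1a1 stood at 1048 ± 41.0, Eif5a at 762 ± 43.2 and Eef2 at 334 ± 7.13 CPM per kb.

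**Figure D3:**
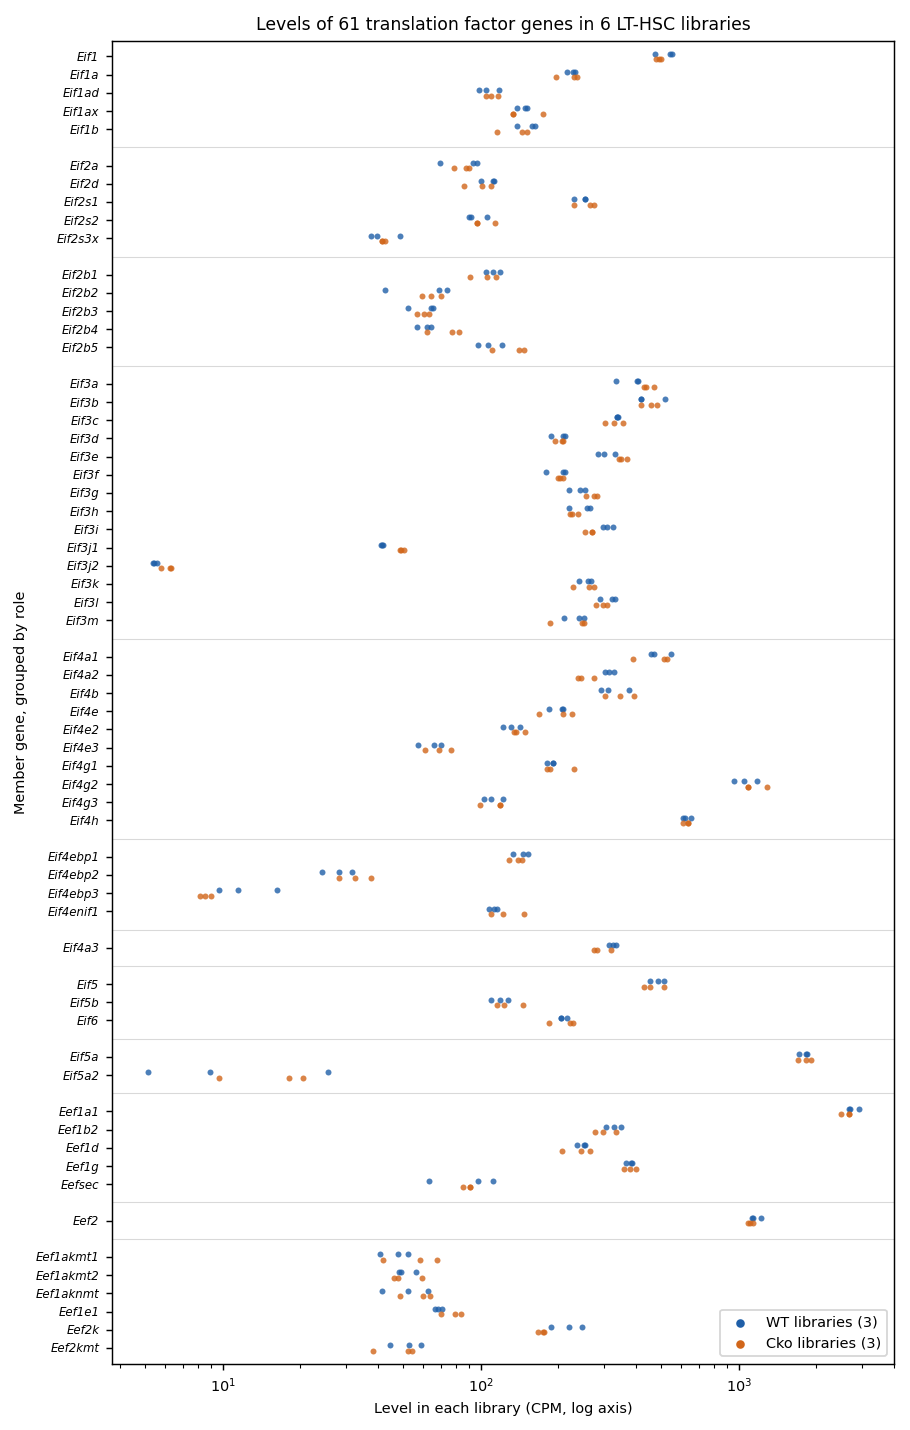
CPM on a log axis, not divided by length, for each of the 61 members, with 1 point per library (blue for WT, orange for Cko) and genes grouped by role. By mean, Eef1a1, Eif5a, Eef2 and Eif4g2 have the most reads and Eif3j2 has the fewest, and the genotypes overlap for 51 members. The lowest single point is Eif5a2 in WT replicate 3.

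In the eIF1 and eIF1A family, the factors eIF1 and eIF1A hold the scanning particle open until a start codon is met. Its 5 members, which include Eif1ad, summed to 1153 ± 49.6 CPM in WT and 1106 ± 65.7 CPM in Cko, and 0 passed. Eif1 had 551, 541 and 475 CPM in WT and 493, 498 and 479 CPM in Cko, with a log2 fold change of -0.089 (SE 0.071, 95% interval -0.25 to 0.069, adjusted p = 0.704). Its close relative Eif1b had 158, 162 and 138 CPM in WT and 116, 151 and 145 CPM in Cko, and its log2 fold change was -0.16 (SE 0.12, 95% interval -0.44 to 0.12, adjusted p = 0.698). The groups overlapped in both genes, and Cko replicate 1 of Eif1b lay below all WT libraries. The eIF1A pair, Eif1a and the X-linked Eif1ax, had log2 fold changes of -0.030 (SE 0.094) and 0.0041 (SE 0.12), and each changed sign under other settings.

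The 5 genes of the eIF2 group, which carry the initiator tRNA or can stand in for eIF2, summed to 578.3 ± 13.0 CPM in WT and 585.3 ± 44.9 CPM in Cko. Eif2s1 encodes the alpha subunit, on which the stress kinases act. It had 254, 254 and 230.4 CPM in WT and 230.4, 264 and 275 CPM in Cko. WT replicate 3 and Cko replicate 1 were the lowest and level with each other, Cko replicates 2 and 3 were the highest, and the log2 fold change was 0.058 (SE 0.091, 95% interval -0.15 to 0.26, adjusted p = 0.871). Eif2s3x, the X-linked gamma subunit, had 48.8, 39.7 and 37.4 CPM in WT and 42.4, 41.3 and 41.6 CPM in Cko, with a log2 fold change of 0.0028 (SE 0.16, 95% interval -0.35 to 0.35, adjusted p = 0.999). Eif2s2, the beta subunit, had 95.9 ± 8.37 CPM in WT and 102 ± 9.76 CPM in Cko. Eif2a and Eif2d, which can bring the initiator tRNA to the ribosome without eIF2, stood at 86.7 ± 14.8 CPM in WT and 85.6 ± 6.11 CPM in Cko (Eif2a), and 108 ± 6.72 CPM in WT and 99.1 ± 11.8 CPM in Cko (Eif2d). The smallest p of the group was that of Eif2d, at -0.13 (adjusted p = 0.762).

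The 5 subunits of eIF2B, which recharges eIF2 with GTP, had log2 fold changes from -0.11 to 0.29, 3 of them positive, and summed to 403.1 ± 33.2 CPM in WT and 435.1 ± 12.5 CPM in Cko. The catalytic epsilon subunit Eif2b5 had 106, 97.8 and 120.4 CPM in WT and 147, 111 and 141 CPM in Cko. Cko replicate 2 lay within the WT range while Cko replicates 1 and 3 lay above it, and the log2 fold change was 0.29 (SE 0.14, 95% interval -0.013 to 0.59, adjusted p = 0.498). Eif2b4, the delta subunit, had 56.6, 64.2 and 62.0 CPM in WT and 77.1, 82.7 and 62.0 CPM in Cko, overlapping groups, and a log2 fold change of 0.27 (SE 0.15, 95% interval -0.052 to 0.59, adjusted p = 0.559). Eif2b2, the beta subunit, had 69.0, 42.6 and 74.3 CPM in WT and 59.1, 70.2 and 64.0 CPM in Cko, and its spread was wider in WT. The alpha subunit Eif2b1 and the gamma subunit Eif2b3 had log2 fold changes of -0.11 and -0.0038.

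The eIF2 kinases with their regulators Gcn1 and Impact, the phosphatase subunits and Atf4 were listed apart from the members. Of these 9 tested genes 1 passed: Ppp1r15a (GADD34), the inducible subunit that brings a phosphatase to eIF2, fell in Cko. It lies at chromosome 7, 45522917 to 45526268 (mm10) and had 310.2, 359 and 413 CPM in WT and 187, 192 and 209 CPM in Cko, or 361 ± 51.2 CPM in WT and 196 ± 11.5 CPM in Cko. Every Cko library was below every WT library, and the log2 fold change was -0.87 (SE 0.11, 95% interval -1.11 to -0.63, adjusted p = 0.0036). The adjusted p was 0.0599 when genes of low level were kept in the fit and 0.124 without limma's mean-variance trend, and lay between 0.00138 and 0.0388 when any 1 library was left out. The constitutive subunit Ppp1r15b, at 58.9, 80.6 and 93.1 CPM in WT and 127, 81.9 and 101 CPM in Cko, had overlapping groups and a log2 fold change of 0.42 (SE 0.20, 95% interval -0.029 to 0.86, adjusted p = 0.507). Among the 4 kinases, Eif2ak4 (GCN2, which senses uncharged tRNA) had -0.39 (adjusted p = 0.45), with every Cko library below every WT library. The groups overlapped for Eif2ak1, Eif2ak2 and Eif2ak3, which had -0.025, 0.22 and -0.032. Atf4, whose mRNA is translated better when eIF2 is phosphorylated, had 123, 123 and 119 CPM in WT and 88.3, 97.2 and 107 CPM in Cko. Its groups did not overlap, and its log2 fold change was -0.32 (SE 0.11, 95% interval -0.57 to -0.077, adjusted p = 0.329). Phosphorylation was not measured.

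**Figure D4:**
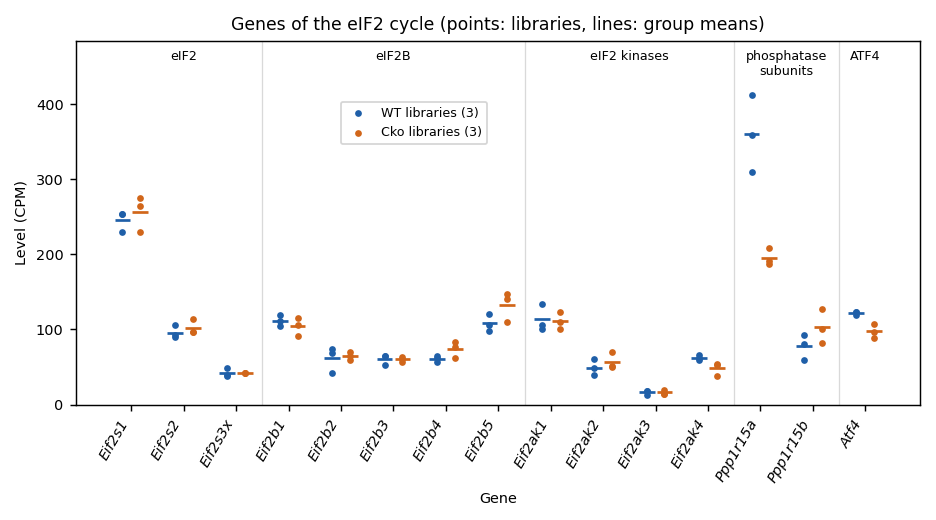
CPM of genes of the eIF2 cycle and of Atf4, with 1 point per library (blue for WT, orange for Cko) and short lines at the group means. Ppp1r15a separates the genotypes, at 310 to 413 CPM in WT against 187 to 209 CPM in Cko. Eif2ak4 and Atf4 also separate, by smaller margins and without passing the test, while Eif2s1 overlaps.

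The 14 genes of eIF3, the scaffold on the small subunit, summed to 3528 ± 65.0 CPM in WT and 3585 ± 60.8 CPM in Cko, with 0 called and 8 of 14 log2 fold changes positive. This family held 3 of the 5 members with an unadjusted p under 0.05, and they differed in sign. Eif3i, a WD-repeat subunit (chromosome 4, 129591974 to 129600648), had 307, 324 and 298 CPM in WT and 255, 269.7 and 270.0 CPM in Cko. All Cko libraries were lower, and its log2 fold change was -0.23 (SE 0.074, 95% interval -0.39 to -0.062, adjusted p = 0.304). Eif3e had 332, 301 and 284 CPM in WT and 370.3, 344 and 350.2 CPM in Cko, all Cko libraries higher, and a log2 fold change of 0.22 (SE 0.080, 95% interval 0.040 to 0.40, adjusted p = 0.374). Eif3a, the largest subunit, had 402, 409 and 335 CPM in WT and 429, 437 and 471 CPM in Cko, again with all Cko libraries higher, and a log2 fold change of 0.23 (SE 0.087, 95% interval 0.032 to 0.42, adjusted p = 0.398). The most abundant by reads, Eif3b, had 419, 416 and 520.0 CPM in WT and 456, 417 and 481 CPM in Cko and an estimate of 0.0046 on the log2 scale (SE 0.10, adjusted p = 0.995), a sign that turned in other settings. Eif3g, which binds RNA, had 220.3, 243 and 252 CPM in WT and 257, 275 and 281 CPM in Cko, with every Cko library higher and a log2 fold change of 0.18 (SE 0.084, 95% interval -0.0040 to 0.37, adjusted p = 0.489). Eif3c was the steadiest in WT, at 338, 339.9 and 339 CPM, and spread over 355, 305 and 328 CPM in Cko. The remaining subunits, Eif3d, Eif3f, Eif3h, Eif3k, Eif3l and Eif3m, had log2 fold changes from -0.11 (Eif3h) to 0.033 (Eif3f), all with overlapping groups. Per kilobase in WT, the subunits other than Eif3j ran from 40.8 ± 2.77 (Eif3d) to 154 ± 15.2 (Eif3h) CPM per kb, while Eif3j1 stood at 7.12 ± 0.0748 CPM per kb. Eif3j is the loosely attached subunit, and mouse has a pair of genes for it. Eif3j1 had 41.2, 41.3 and 42.0 CPM in WT and 50.5, 48.8 and 49.3 CPM in Cko, and Eif3j2 had 5.39, 5.34 and 5.55 CPM in WT and 6.30, 5.78 and 6.23 CPM in Cko. Neither pair of groups overlapped, yet the standard errors that limma assigns at such levels (0.14 and 0.33) left adjusted p-values of 0.559 and 0.904. Of the 50-base stretches of Eif3j2 transcripts, 91.8% also occur in other genes, most of them in Eif3j1, so reads of the pair may have been split between them.

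The 10 genes of eIF4F and its helpers summed to 3515 ± 75.3 CPM in WT and 3572 ± 163 CPM in Cko, with 0 called. Eif4a2, 1 of a pair of eIF4A helicases, had the smallest p of all members. It lies at chromosome 16, 23107468 to 23114132 and had 315, 329 and 304 CPM in WT and 238, 274 and 245 CPM in Cko, or 316 ± 12.3 CPM in WT and 252 ± 19.1 CPM in Cko. Every Cko library was below every WT library, and the log2 fold change was -0.33 (SE 0.082, 95% interval -0.51 to -0.14, adjusted p = 0.162). Across 22 other settings the estimate ran from -0.39 to -0.28 and the adjusted p from 0.101 to 0.468, so it passed in none. The other helicase, Eif4a1, had 458, 546 and 470.2 CPM in WT and 389, 528 and 514 CPM in Cko with a log2 fold change of -0.052 (SE 0.12, 95% interval -0.31 to 0.21, adjusted p = 0.917), and its groups overlapped. Eif4e, the cap-binding protein, had 207, 183 and 208 CPM in WT and 168, 208 and 226 CPM in Cko. Its Cko libraries held both the lowest and the highest value, and its log2 fold change was -0.0008 (SE 0.12, 95% interval -0.27 to 0.26, adjusted p = 0.999). Eif4g2 (DAP5), an eIF4G relative without the eIF4E site, had the most reads of the group, at 1173, 1049 and 958 CPM in WT and 1085, 1084 and 1283 CPM in Cko, and a log2 fold change of 0.12 (SE 0.085, 95% interval -0.071 to 0.31, adjusted p = 0.661). The scaffold Eif4g1 had 187 ± 6.18 CPM in WT and 198 ± 26.7 CPM in Cko, and its relative Eif4g3 had 112 ± 9.86 CPM in WT and 112 ± 11.3 CPM in Cko. The eIF4E relatives Eif4e2 and Eif4e3 had log2 fold changes of 0.091 and 0.094, and Eif4b, which stimulates eIF4A, had 0.090. The helper Eif4h had a narrow interval, -0.13 to 0.12 around -0.0023. Eif4a3 is a relative of eIF4A that serves in the exon junction complex rather than in initiation. It had 335, 325 and 315 CPM in WT and 274, 319.9 and 283 CPM in Cko and a log2 fold change of -0.16 (SE 0.081, 95% interval -0.34 to 0.025, adjusted p = 0.552).

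The proteins that hold eIF4E away from eIF4G were next, with 0 of 4 called and sums of 296.4 ± 15.0 CPM in WT and 304.7 ± 19.9 CPM in Cko. Eif4ebp1 had 152, 134 and 146 CPM in WT and 139, 145 and 129 CPM in Cko, and Eif4ebp2 had 31.6, 24.3 and 28.2 CPM in WT and 32.5, 28.2 and 37.4 CPM in Cko. Groups overlapped for both, and the log2 fold changes were -0.064 (SE 0.10, 95% interval -0.29 to 0.16, adjusted p = 0.87) for Eif4ebp1 and 0.22 (SE 0.19, 95% interval -0.20 to 0.64, adjusted p = 0.73) for Eif4ebp2. Eif4ebp3 had 16.2, 9.66 and 11.5 CPM in WT and 9.04, 8.57 and 8.19 CPM in Cko, all Cko libraries lower, with a log2 fold change of -0.50 (SE 0.29, 95% interval -1.15 to 0.14, adjusted p = 0.585). Eif4enif1, which carries eIF4E into the nucleus, had 112 ± 3.83 CPM in WT and 126 ± 18.9 CPM in Cko and a log2 fold change of 0.16. Of the Eif4ebp3 transcripts' 50-base stretches 65.5% are shared with 1 other gene. It is AC115631.1, annotated as protein coding on the same strand, and its exons overlap those of Eif4ebp3. The sharing limits the Eif4ebp3 value.

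Eif5, Eif5b and Eif6, which act when the subunits join or, for Eif6, keep them apart, summed to 811.8 ± 31.7 CPM in WT and 804.3 ± 28.9 CPM in Cko. Their log2 fold changes were -0.064, 0.11 and 0.017, with 0 called. The eIF5A pair, the only proteins known to carry the modified lysine hypusine, differed widely in level. Eif5a (chromosome 11, 69916712 to 69921958) had 1710.3, 1828 and 1833 CPM in WT and 1827, 1907 and 1703 CPM in Cko, with a log2 fold change of 0.017 (SE 0.051, 95% interval -0.10 to 0.13, adjusted p = 0.947). Eif5a2 (chromosome 3, 28781032 to 28798846) had 25.6, 8.90 and 5.11 CPM in WT and 18.1, 9.71 and 20.6 CPM in Cko. The highest WT library was 4.99 times the lowest, although all 3 were portions of 1 pool, and in Cko the ratio was 2.11. Its log2 fold change of 0.55 (SE 0.53, 95% interval -0.64 to 1.73, adjusted p = 0.767) rested on single libraries: it was 1.19 without WT replicate 1 (adjusted p = 0.378) and 0.026 without WT replicate 3 (adjusted p = 0.991).

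The eEF1 genes, which deliver aminoacyl-tRNA and recharge eEF1A, summed to 3818 ± 136 CPM in WT and 3624 ± 144 CPM in Cko. Eef1a1 (chromosome 9, 78478453 to 78481724) had 2921, 2710.3 and 2687 CPM in WT and 2666, 2678 and 2495 CPM in Cko. Every Cko library was lower, by a small margin, and the log2 fold change was -0.086 (SE 0.045, 95% interval -0.19 to 0.014, adjusted p = 0.552); under quantile normalization it was 0.043. Eef2 (chromosome 10, 81176631 to 81182509) had 1140.5, 1125 and 1217 CPM in WT and 1109.8, 1087 and 1135 CPM in Cko, overlapping groups and a log2 fold change of -0.063 (SE 0.049, 95% interval -0.17 to 0.046, adjusted p = 0.694). The accessory subunits that recharge eEF1A, Eef1b2, Eef1d and Eef1g, had WT means of 329, 247 and 378 CPM, with log2 fold changes of -0.11, -0.058 and 0.0011 and overlapping groups. Eefsec, which serves selenocysteine, varied more among the WT libraries, at 63.3, 111 and 97.4 CPM, than among the Cko libraries, at 91.2, 91.1 and 85.4 CPM.

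Eef2k, the kinase that phosphorylates and inhibits eEF2, led the 6 Eef-named modifiers and partners, which summed to 489.3 ± 48.3 CPM in WT and 462.6 ± 30.5 CPM in Cko. It lies at chromosome 7, 120842642 to 120907219 and had 188, 220.4 and 248 CPM in WT and 167, 174 and 176 CPM in Cko, or 219 ± 29.9 CPM in WT and 172 ± 4.89 CPM in Cko. The Cko libraries were close to each other and all below the WT libraries, which spread more widely. The log2 fold change was -0.33 (SE 0.11, 95% interval -0.58 to -0.092, adjusted p = 0.3). Leaving out 1 library moved its adjusted p between 0.133 and 0.569. Among the methyltransferases of eEF1A, Eef1akmt1, Eef1akmt2 and Eef1aknmt had log2 fold changes of 0.23, -0.0083 and 0.15, with intervals up to 0.66 for Eef1akmt1. Eef2kmt, which methylates eEF2, had -0.12, and Eef1e1, a scaffold protein of the multi-synthetase complex, had 0.18.

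In 7 paralog pairs compared per kilobase, the first named copy stood above the second in every library. Eif4a1 over Eif4a2 was 1.79, 2.04 and 1.90 in WT and 2.02, 2.37 and 2.58 in Cko, overlapping between groups. Eif5a exceeded Eif5a2 by 142 to 758 times in WT and by 175 to 415 times in Cko. Eif4ebp1 stood 13.6 ± 0.924 times above Eif4ebp2 in WT and 11.3 ± 2.22 times in Cko. Eif1a over Eif1ax was 1.95 ± 0.122 in WT and 1.91 ± 0.237 in Cko. Eif4g1 over Eif4g3 was 2.55 ± 0.230 in WT and 2.68 ± 0.297 in Cko, and Eif1 over Eif1b was 1.84 ± 0.0393 and 1.94 ± 0.298. Eif3j1 over Eif3j2 was 3.11, 3.16 and 3.09 in WT and 3.27, 3.45 and 3.23 in Cko, the 1 pair of the 7 whose groups did not overlap, and the difference was not tested. Reads shared with copies limit these ratios: 65.3% of the 50-base stretches of Eif4a1, mostly with a pseudogene, and 53.6% of those of Eef1a1 occur in other genes. Over 10% was shared for 19 of the 61 members and over 50% for 6, while 20 shared none.

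**Figure D5:**
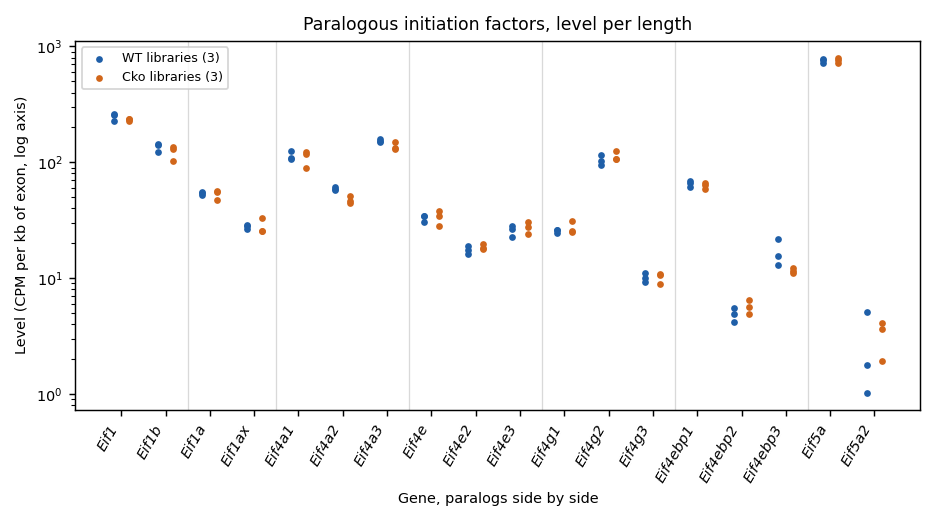
CPM per kb of exon on a log axis for paralogs set side by side, with 1 point per library (blue for WT, orange for Cko). Eif5a stands 142 to 758 times above Eif5a2, whose libraries are widely spread, and Eif4a2 is lower in all Cko libraries.

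The 6 genes below the filter on level included the partner of the most abundant member. Eef1a2, the eEF1A form of muscle and neurons, had 6 reads in WT replicate 2 and 0 in the other 5 libraries. Eif4e1b, an oocyte form of eIF4E, and Eif2s3y, the Y-linked gamma subunit of eIF2, had 0 reads in all 6 libraries, as had the long noncoding Eif2c5. A count of 0 allows up to 3 reads, or 0.0687 to 0.0814 CPM by library, for counting error only. Eef1akmt3 had 2 reads in Cko replicate 1 and 0 elsewhere. Eif4a3l1 had 3, 1 and 1 reads in WT and 2, 0 and 0 in Cko.

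Other genes of the pathway were taken from lists of 56 genes, of which 54 were tested. None was higher and 1 was lower, Ppp1r15a, which is 1.85%. Of all tested genes 0.292% were called lower and 0.407% higher, or 0.699% in either direction. At an unadjusted p under 0.05 there were 7 (13.0%), against 10.3% of all genes, and 29 of 54 log2 fold changes were positive. Of the 13 tested genes of mTOR complex 1 and translation control, 0 passed; Pdcd4, an inhibitor of eIF4A, had the smallest p, with 204, 253 and 219 CPM in WT, 291, 279 and 294 CPM in Cko and a log2 fold change of 0.36 (SE 0.093, 95% interval 0.15 to 0.57, adjusted p = 0.179). All of its Cko libraries were above all WT libraries. No gene passed among the 5 for poly(A)-binding proteins, the 9 other initiation and recycling factors, the 3 termination factors, the 9 hypusine and diphthamide enzymes or the 6 mitochondrial factors. The smallest p-values in these lists belonged to Paip2 at -0.063, Abcf2 at 0.31, Gspt1 at 0.090, Dph5 at -0.36 and Gfm1 at -0.58 on the log2 scale, with adjusted p-values from 0.308 to 0.786.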

How the data were processed

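LT-HSC RNA-seq libraries, 3 WT and 3 Cko, were deposited by the authors as 1 table of log2 values per gene. Build mm10 and the tools limma, featureCounts, HISAT2 and FastQC are listed, with no order, in the submitters' processing notes; the sources used here give no versions, parameters or strandedness. The values equal log2 of (reads + 0.5) per 1000000 of an effective library size: reads recovered from them were whole within 0.01 for 100% of values, and CPM values are these reads on the same scale. Genes with a log2 CPM of at least 0 in at least 3 libraries were tested with limma 3.58.1 (R 4.3.3; lmFit, eBayes with trend) on the deposited log2 values, with Benjamini-Hochberg adjustment over 13018 genes and a threshold of 0.05. On simulated data the fit recovered 13.4% of 1.5-fold, 38.8% of 2-fold and 81.8% of 4-fold changes over 13018 genes, so a missing call does not show a missing change. The changed genes were drawn from all tested genes, with a median level of 5.21 log2 CPM against 7.60 for the members. The simulated spread was that between portions of a pool, and counting noise was drawn on top of it although the fitted spread already held such noise. The effect of this on recovery was not tested. Recovery at the members' levels was not tested. Exon lengths are unions of GENCODE M21 exons, retained introns included, which lowers the per-length level of genes that have them. Of the gene IDs, 25275 matched RefSeq GRCm38.p6 and 1904 did not; coordinates are RefSeq's on that build.

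Members and gene lists were chosen with earlier results of these data known. The text names, in each role list, the member with the smallest p and that with the highest level, fixed paralog pairs, called pathway genes and the smallest p in each pathway list; other members, Ppp1r15b, the eIF2 kinases and Atf4 were added after their values were seen. WT and Cko share replicate numbers, but same-numbered libraries did not deviate together (correlations -0.010, -0.021 and 0.020), so they were not paired. Alternatives were other filters, offsets, scalings and fits, the replicate block, and leaving out each library.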

Additional observations from a re-analysis of the deposited data

How the results depend on the processing

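No member passed an adjusted p of 0.05 under any of the 22 other settings, and the smallest adjusted p of any member ran from 0.101 to 0.468. The replicate block called 67 genes in all, against 91, with 44 higher and 23 lower, and 0 members. The estimate changed sign under at least 1 of these settings for 27 of the 61 members, 11 of them under a setting that kept all libraries, with sizes of at most 0.223 after the change and adjusted p of at least 0.666; the cause was not tested. Among the members named by the rule, 7 did so. Median centring gave -0.005 for Eif1ax, -0.006 for Eif2s3x and -0.004 for Eif3b. Quantile normalization gave 0.043 for Eef1a1, 0 for Eif1ax and -0.005 for Eif2s3x, and voom gave -0.002 for Eif3b. Leaving out 1 library gave ranges of -0.082 to 0.054 for Eif1a, -0.125 to 0.069 for Eif1ax, -0.075 to 0.116 for Eif2s3x, -0.050 to 0.110 for Eif3b, -0.132 to 0.087 for Eif4a1 and -0.021 to 0.061 for Eif5a. The log2 fold change of Prdm16 was -1.93 without the filter (adjusted p = 0.0599) and without the trend (adjusted p = 0.0967), past the threshold in neither, and ran from -2.17 to -1.76 over left-out libraries; without Cko replicate 2 it was -1.82. The members' median ran from 0.0007 to 0.035 over left-out libraries, the latter without Cko replicate 1. Of all genes, 53 were higher and 38 lower in the fit reported. Without the filter 19 were higher and 14 lower, with log2(CPM + 1) 105 and 59, and with log2(CPM + 5) 104 and 64; without the trend 15 were lower. With 1 library left out, 20 to 66 were higher and 19 to 31 lower. Leaving out each library while testing the genes of all 6, and no other setting, was chosen after seeing the data. edgeR and DESeq2, planned on recovered reads, were not run; voom was run on those reads. The intervals of 7 members reach beyond 1.5-fold (Eif2b4, Eif2b5, Eif3j2, Eif4ebp2, Eif4ebp3, Eif5a2 and Eef1akmt1). Differences of that size between the WT pool and the Cko pool were not bounded for them. For no member do the intervals bound a difference between animals.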

Other observations

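The gamma subunit of eIF2 has a copy on each sex chromosome, Eif2s3x and Eif2s3y, and only the X copy was detected above 1 read. Eif2s3y and the Y-linked genes Ddx3y and Kdm5d had 0 reads in all 6 libraries, and Uty, also Y-linked, had 1 read in WT replicate 1. Xist, the noncoding RNA of the inactive X chromosome, had 409, 511 and 434 CPM in WT and 337, 451 and 363 CPM in Cko. The labels used here do not give the sex of the mice.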
